A study of Rattus norvegicus with 12 samples.

Results

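Islets of rat offspring whose dams had gestational diabetes mellitus (GDM) were compared with islets of offspring of lean dams, over both weaning diets at once and across all genes. Every library of the series entered: 6 of 12 came from GDM offspring and 6 of 12 from Lean offspring, chosen by the diet of the dam in the library titles. Dams were Sprague-Dawley females, 6 per diet, fed either low-fat chow (LF, 10% fat) or fat- and sucrose-rich chow (HFS, 45% fat). They ate it for 6 weeks, were mated with males on LF, and stayed on it until their pups were weaned. The HFS diet of the dam is what induced GDM, so maternal diabetes and maternal diet cannot be told apart. After weaning, pups ate LF or HFS for 12 weeks, and their age at islet isolation was 15 weeks. Each of the 4 groups has 3 libraries, named by dam and then by weaning diet, as in GDM-LF for pups of a GDM dam that were weaned onto LF. Values for single libraries are listed with LF before HFS and by replicate number 1 to 3. The labels give neither litter nor sex of an animal, so offspring of 1 dam may be among the 6, and p-values measure only spread between libraries, which limma shares in part over genes.

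Islets of Langerhans are small clusters of endocrine cells in the pancreas. Beta cells make up most of a rat islet and spend much of their protein synthesis on insulin, which they fold in the endoplasmic reticulum, pack into granules and release when glucose metabolism in mitochondria closes potassium channels and lets calcium in. Islet cells also share many genes with neurons, among them channels, neurotransmitter receptors and proteins of vesicle release. In rodents, maternal diabetes during gestation is a known influence on how the islets of the offspring develop.

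Between 11469290 and 27492858 reads over genes were recovered per library. Insulin transcripts took 22.0% to 34.4% of the reads outside ribosomal RNA (rRNA), with a difference between dams of 0.349 percentage points (p = 0.91, two-sided exact permutation within weaning diets). In all, 4 properties of whole libraries were compared in this way, and p-values adjusted over the 4 stand beside the raw ones. The rRNA that remained after depletion took 1.84% to 39.0% of reads in Lean libraries and 1.84% to 8.55% in GDM libraries (p = 0.035, adjusted 0.07, exact permutation; p = 0.065 without Lean-LF 2). Short transcripts (under 1000 bases) stood higher relative to long ones (over 4000 bases) in every GDM library than in any Lean library, by 0.70 on the log2 scale (p = 0.005, adjusted 0.02, the smallest p the 400 assignments allow, exact permutation). Acinar markers, from exocrine tissue that adheres to islets, had overlapping levels (p = 0.165, adjusted 0.22, exact permutation) and were highest in GDM-LF 2. In bulk islets, fewer cells of a type and less RNA per cell cannot be told apart. Lean-LF 3 had 1.84% rRNA, the lowest of the Lean libraries, and a length measure of -0.08, next to Lean-HFS 2 (-0.10). Lean-LF 1 and Lean-LF 2 stood apart on this measure (-0.72 and -0.73). A letter K in the title, of no stated meaning, marks GDM-LF 1, GDM-LF 2 and GDM-HFS 3, all 3 with GDM dams, so within these libraries letter and dam cannot be told apart.

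In all, 1438 of 12340 tested genes differed between the dams (11.7%; limma, Benjamini-Hochberg adjusted p under 0.05). Of these, 775 were higher in GDM offspring (6.28% of tested genes) and 663 lower (5.37%). Values below are deposited values rescaled between libraries ("scaled values", not divided by transcript length), as the median and, in brackets, the lowest and highest of 6 libraries. Differences are GDM minus Lean on the scale of log2(scaled value + 1), with their standard error (SE). The median difference of all tested genes was 0.03. Called rises had a median of 0.76 and called falls a median of -0.66, and 216 rises and 69 falls were at least 2-fold. For 631 genes (5.11%) the 6 GDM and 6 Lean libraries did not overlap at all, 345 higher (2.80%) and 286 lower (2.32%), and 563 of them were among the calls.

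The same direction was seen on both weaning diets. Every one of the 1438 called genes differed in the same direction on LF and on HFS. This is a description, since the call uses both diets. The comparisons on LF and on HFS share no library, and across all tested genes their differences correlated with Pearson r = 0.44, or 0.37 with the trend on transcript length removed, where genes are not independent replicates. Of 1400 genes at an unadjusted p under 0.01 on LF, 1264 (90.3%) went the same way on HFS, with a median difference there of 0.53 for those higher on LF and -0.34 for those lower. In the other direction, 517 of 558 genes (92.7%) chosen on HFS went the same way on LF, against 68.2% of all tested genes. The p-values used to choose these genes share 1 estimate of the spread over both diets. The length trend was not removed from these percentages. Taken alone, LF-weaned offspring gave 195 called genes (1.58%; 105 higher, 90 lower), a count that ranged from 0 to 1726 with 1 library left out and was 0 by edgeR, and 3279 genes had an unadjusted p under 0.05. HFS-weaned offspring alone gave 1 call (0.0081%), Anks1b, and the difference between the diets (the interaction) gave 0 of 12340 genes by limma and 0 of 12337 by edgeR (0%; lowest limma adjusted p = 0.784; 730 genes at an unadjusted p under 0.05).

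**Figure D1:**
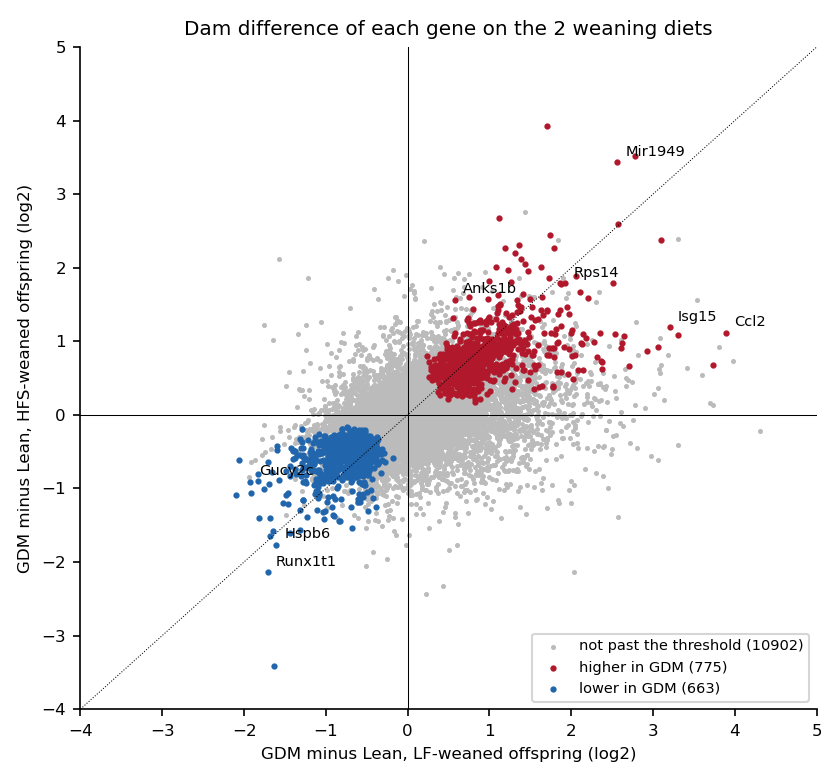
Each point is 1 of 12340 genes, placed by its GDM minus Lean difference (log2 of scaled value + 1) in LF-weaned offspring (x axis) and in HFS-weaned offspring (y axis), red where higher and blue where lower in the fit over both diets, grey otherwise, with the dotted line marking equal differences. The 775 red and 663 blue genes lie in the quadrants where both diets have 1 sign, and Ccl2 and Isg15 lie far to the right of the dotted line.

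The number of calls rested on which libraries were used. Without the 3 K libraries no gene passed (lowest limma adjusted p = 0.127, with 2349 genes at an unadjusted p under 0.05). All 1438 genes kept their direction and 1288 of them had an unadjusted p under 0.05. This is a description, since the remaining libraries had also served to call these genes. With the level of Rn45s, the rRNA precursor entry, as a covariate, no gene passed either (lowest adjusted p = 0.48; 1167 at an unadjusted p under 0.05). Leaving out 1 library at a time gave 393 to 2110 calls. The count moved by over 1.5 times without GDM-HFS 3 (660), GDM-LF 2 (876), Lean-HFS 1 (611), Lean-LF 1 (425) or Lean-LF 2 (393). All 1438 genes kept their direction in these 12 fits, again a description, since each fit shares its libraries with the call. Of them, 378 (262 higher, 116 lower) passed in all 12. Without the rescaling of libraries the split was 346 higher and 137 lower, and by edgeR on recovered reads it was 621 higher and 792 lower.

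Transcript length moved with the dam. The difference between dams fell with length across genes (Spearman rho = -0.40, a description over genes). Of 1334 tested genes with transcripts under 1000 bases, 377 were higher and 9 lower in GDM offspring, and of 1890 with transcripts over 4000 bases, 11 were higher and 258 lower. With the trend on length removed from each library, 562 genes passed (4.55%; 243 higher, 1.97%; 319 lower, 2.59%), 469 of the 1438 passed with their direction kept, and 21 of the 1438 changed sign. For the main gene groups below, the median with this trend removed is given beside the plain one.

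**Figure D2:**
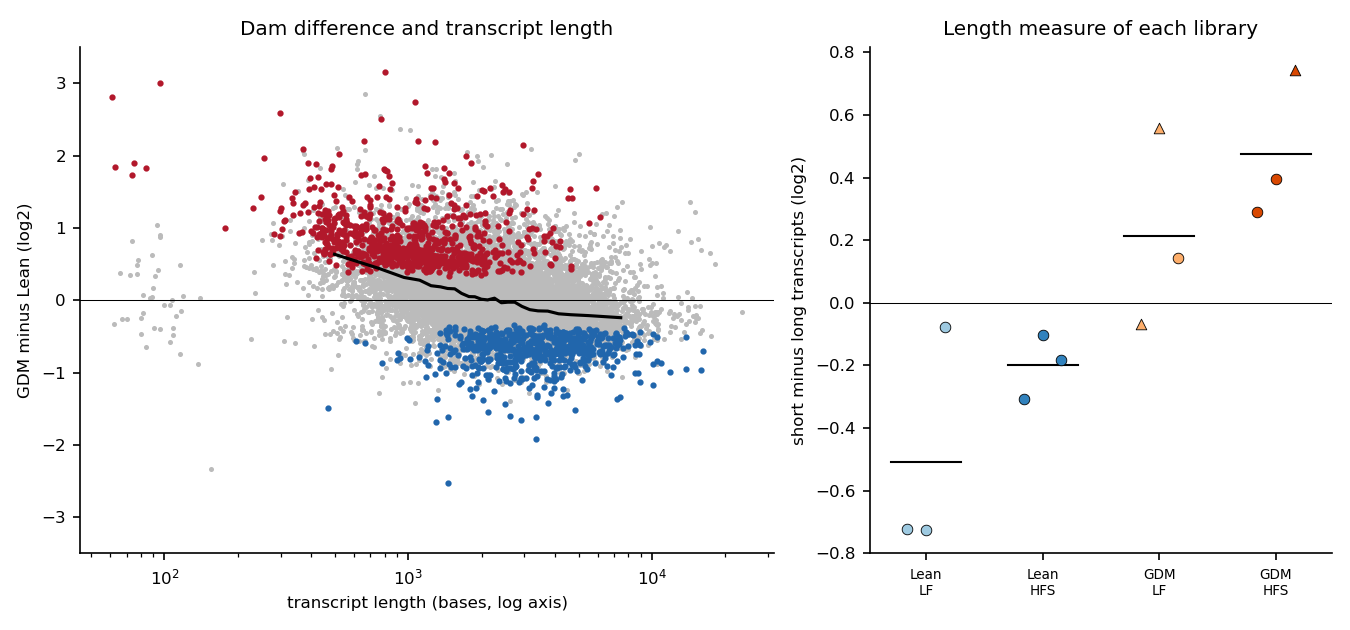
The left panel plots the GDM minus Lean difference of each gene (log2) against transcript length (bases, log axis), red where higher, blue where lower, grey otherwise, with a black line through the medians of 25 length classes. The right panel gives, per library, the median deviation of short minus that of long transcripts (log2), with bars for group means and triangles for K libraries: the 6 GDM libraries lie above the 6 Lean ones, and the closest are -0.07 and -0.08.

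Falls were ranked by size among calls whose GDM and Lean libraries did not overlap and whose scaled values averaged 10 or more. Hspb6 (chromosome 1, 90162932 to 90165071, build rn5), of the small heat shock family, had scaled values of 134, 119.6, 46.2, 113, 75.1 and 70.9 in the Lean and 27.96, 20.3, 42.99, 38.8, 22.2 and 16.2 in the GDM libraries (log2 -1.69 ± 0.29, adjusted p = 0.00774). Its lowest Lean library, Lean-LF 3, was just above its highest GDM library. Grin1, the subunit that every NMDA glutamate receptor needs (chromosome 3, 2489158 to 2516076), stood at 98.9 (89.5 to 166) in Lean and 39.7 (32.7 to 77.3) in GDM libraries (log2 -1.32 ± 0.23, adjusted p = 0.0087). Slc29a4, a plasma membrane monoamine transporter, was the most abundant of these genes, at 1488 (1042 to 2159) in Lean and 761 (382 to 861) in GDM libraries (log2 -1.12 ± 0.23, adjusted p = 0.0121). Sirpa, the receptor for CD47 (log2 -1.28), and Slc3a1, the heavy subunit of a cystine and dibasic amino acid transporter (log2 -1.26), had scaled values of at most 346 and 98.3 in the GDM libraries.

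The other 10 of the 15 largest falls lay between log2 -1.92 and -1.08. Runx1t1, a transcriptional corepressor, stood at 20.8 (18.3 to 32.3) in Lean and 9.17 (0 to 11.99) in GDM libraries (log2 -1.92 ± 0.50, adjusted p = 0.0286), and Gucy2c, the guanylate cyclase receptor for guanylin, at 466 (384 to 707) in Lean and 251 (42.3 to 358) in GDM libraries (log2 -1.42 ± 0.39, adjusted p = 0.0322). Kcna4, a voltage-gated potassium channel (log2 -1.22), Iqsec3, an exchange factor at inhibitory synapses (log2 -1.34), Dlgap3, a postsynaptic scaffold (log2 -1.09), and Clstn2, a calsyntenin (log2 -1.08), fell as well. So did the homeobox factor Lhx1 (log2 -1.22) and Fam163b (log2 -1.36), Plxdc1 (log2 -1.14) and Fam222b (log2 -1.09). Of the 15, 8 passed in every fit with 1 library left out. Calls were lost in at least 1 fit (leaving out GDM-HFS 1 to 3, GDM-LF 1 and 2, Lean-HFS 1 and 2 and Lean-LF 1 and 2, in turn) for Runx1t1, Gucy2c, Iqsec3, Kcna4, Lhx1, Dlgap3 and Clstn2 (adjusted p up to 0.107), and with the length trend removed for Runx1t1, Gucy2c, Iqsec3 and Kcna4 (adjusted p 0.0547 to 0.0919).

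Rises were ranked in the same way, among calls without overlap whose scaled values averaged 10 or more. Mir1949 led these with log2 3.00, and it is described with the other small RNAs below. Higd1a, a small mitochondrial protein induced by hypoxia (chromosome 8, 129660254 to 129669650), had scaled values of 107, 107, 283, 162, 157 and 172 in the Lean and 535, 687, 431, 390.2, 426 and 1097 in the GDM libraries (log2 1.82 ± 0.27, adjusted p = 0.00719). The difference was 1.86 on LF and 1.79 on HFS, and 1.67 with the length trend removed. Snrpg, a core protein of the spliceosome's small nuclear particles, stood at 154 (88.5 to 253) in Lean and 444 (321 to 598) in GDM libraries (log2 1.56 ± 0.24, adjusted p = 0.00719). Rpl41 (log2 1.53), Rpl35a (log2 1.5) and Rps14 (log2 1.86) belong to the ribosome. Gas5, a host transcript of small nucleolar RNAs, stood at 19.1 (8.29 to 46.9) in Lean and 75.5 (66.02 to 86.5) in GDM libraries (log2 1.89 ± 0.32, adjusted p = 0.00774).

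Hist1h4m, 1 of several near-identical histone H4 genes (log2 1.82), and Hspa1b, an inducible Hsp70 that shares reads with Hspa1a (log2 1.55), are uncertain as single genes. Pdzk1ip1 rose too (log2 1.58 ± 0.40, adjusted p = 0.0234). Calls were lost with 1 library left out (GDM-HFS 2 and 3, GDM-LF 1, Lean-HFS 1 to 3 and Lean-LF 1 and 2, in turn) for Isg15, Rmrp, Ccl7, Pdzk1ip1 and Hspa1b (adjusted p up to 0.106), and with the length trend removed for Isg15, Rmrp, Hist1h4m, Ccl7 and Pdzk1ip1 (adjusted p 0.0709 to 0.135).

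**Figure D3:**
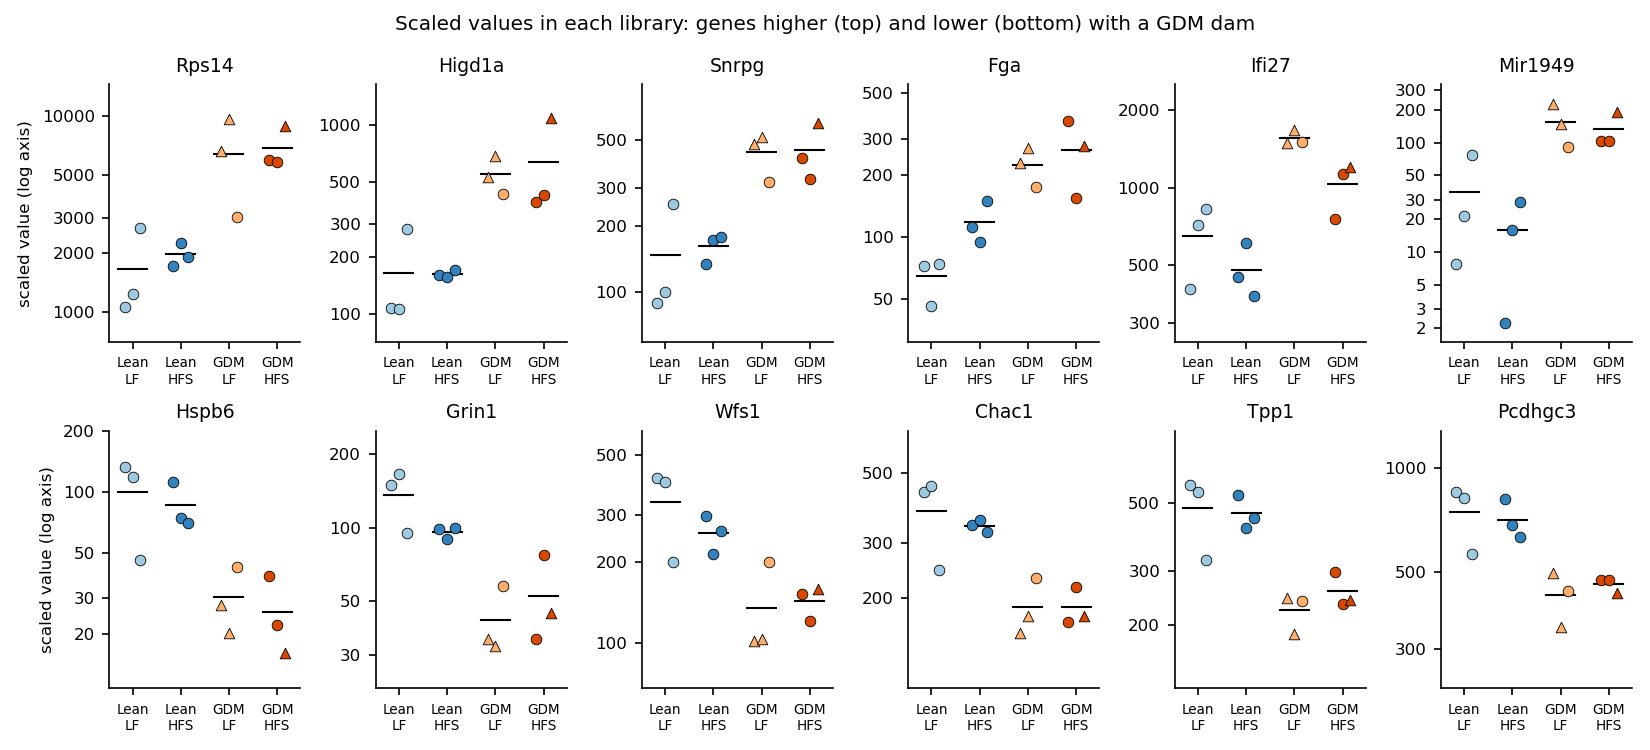
Scaled values (log axes) of 12 genes in each of the 12 libraries, with groups on the x axis, bars for group means and triangles for the K libraries. Genes of the top row are higher and genes of the bottom row lower in GDM offspring, and the Lean-LF library nearest to the GDM libraries is Lean-LF 3 in all 12 panels.

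The small noncoding RNA entries that rose include 3 microRNA hairpins, shown by their mature strands because an entry's name does not say which strands it can give. MicroRNAs are cut from a hairpin into mature strands that pair with target messages through their seed, bases 2 to 8, in capitals here (RefSeq, GRCr8). The entries count reads over the hairpin in libraries made from fragmented total RNA, so they do not measure the mature strand.
rno-miR-1949: uAUACCAGgaugucagcauaguu
rno-miR-1843b-5p: aUGGAGGUcucugucugacuuag
rno-miR-1843b-3p: uCUGAUCGuuccccuccauac
rno-miR-375-3p: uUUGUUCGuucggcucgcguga
rno-miR-375-5p: gCGACGAGccccucgcacaaacc
The 5 seeds differ from each other. miR-375 is the most studied microRNA of the islet and was named here after its values were seen.

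Mir1949 (chromosome 18, 28066258 to 28066354) had scaled values of 7.75, 21.4, 76.7, 2.25, 15.98 and 28.8 in the Lean and 227, 148, 91.5, 102, 104 and 192 in the GDM libraries (log2 3.00 ± 0.55, adjusted p = 0.00915). Only Lean-LF 3 came near the GDM range. Mir1843b stood at 16.9 (5.19 to 132) in Lean and 126 (105 to 162) in GDM libraries (log2 2.81 ± 0.51, adjusted p = 0.00896), with Lean-LF 3 inside the GDM range. Mir375 was low, at 1.00 (0 to 5.17) in Lean and 5.99 (3.22 to 14.5) in GDM libraries (log2 1.73 ± 0.44, adjusted p = 0.0249). Some other noncoding RNAs, named here because they were called, went the same way. Terc, the RNA template of telomerase, stood at 39.4 (28.6 to 78.7) in Lean and 174 (96.7 to 320.2) in GDM libraries (log2 1.90 ± 0.35, adjusted p = 0.00931), Rmrp, the RNA of the nuclease MRP, at 47246 (29179.5 to 81480.3) in Lean and 179622 (92031 to 444285) in GDM libraries (log2 1.97 ± 0.55, adjusted p = 0.036), and Rn7sl1, the RNA of the signal recognition particle, at 6988 (4150.5 to 38398) in Lean and 56068 (28022 to 99322) in GDM libraries (log2 2.58 ± 0.53, adjusted p = 0.0121). In the whole list of such genes, 8 of 47 rose, beside 6.28% of all tested genes, 0 fell and 39 did not pass. The median difference was 0.07 (-0.69 with the length trend removed), with 28 genes above 0 and 19 below. With the length trend removed, 4 rose and 3 fell. Mir375 and Rmrp lost their calls in fits without 1 library (GDM-HFS 3, GDM-LF 1, Lean-HFS 1 to 3 and Lean-LF 1 and 2, in turn; adjusted p up to 0.106) and with the length trend removed (adjusted p 0.135 to 0.143).

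Most genes of the cytosolic ribosome were higher in GDM offspring. Of 35 proteins of the small subunit 33 rose, and of 48 of the large subunit 39 rose. None fell in either list, and 2 and 9 did not pass. The background is 6.28% of tested genes risen. Median differences were 1.08 and 0.97, with the length trend removed 0.51 and 0.39, and without the K libraries 0.85 and 0.71. With the length trend removed, only 16 and 13 of them rose and 0 fell, against 1.97% of tested genes risen. The libraries of the 2 dams did not overlap for 25 and 30 of them, against 2.80% of tested genes that were higher without overlap. Since many ribosomal protein genes have near-identical processed copies, single members are uncertain.

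Rps14 (chromosome 18, 55276797 to 55281581) had scaled values of 1058, 1238, 2679.8, 1723, 2259 and 1916 in the Lean and 6591, 9641, 3046, 5965, 5824 and 8858 in the GDM libraries (log2 1.86 ± 0.28, adjusted p = 0.00719). All GDM libraries lay above all Lean ones, with Lean-LF 3 and GDM-LF 3 the closest. Rps21 stood at 1164 (655 to 1422) in Lean and 2587 (1693 to 3951) in GDM libraries (log2 1.34 ± 0.20, adjusted p = 0.00719). Rps15a (log2 1.30), Rps28 (log2 1.41), Rpl37 (log2 1.21), Rpl37a (log2 1.31), Rpl36a (log2 1.22) and Rpl39 (log2 1.09) rose by similar amounts. Translation factors moved less, and their counts stand beside 6.28% of all tested genes risen. Of 47 initiation factor genes 7 rose, among them Eif3i (log2 0.64), Eif6 (log2 0.72) and Eif2s1, the alpha subunit of eIF2 (log2 0.69), and Eif2ak1, a kinase that inhibits eIF2, fell (log2 -0.43 ± 0.09, adjusted p = 0.015). Of 8 elongation factor genes 3 rose, led by Eef1b2 (log2 1.00 ± 0.16, adjusted p = 0.00719). Calls were lost without 1 library (Lean-HFS 1 and Lean-LF 1 and 2, in turn) for Eif6 and Eif2s1 (adjusted p up to 0.0628), and with the length trend removed for Rpl39, Eif3i and Eif6 (adjusted p 0.0652 to 0.181).

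Messages of ribosomal proteins are known to begin with an unbroken run of pyrimidines at their start site, known as the 5′ terminal oligopyrimidine tract, through which mTOR tunes their translation. The windows below run from 10 bases before to 12 bases after the RefSeq start (GRCr8), with a run of at least 8 C or T in capitals. The comparison did not use these letters. The first 5 genes carry the run in this window. For Gas5 no such run was found around the annotated start, which does not show that its transcripts lack the tract. Not every ribosomal protein gene has a run in its window.
Rps14: ccgTCTCTCTCTTTCCggtgga
Rps21: agccaCTTCCTTTCTgtgttct
Rpl37a: cccgttgcgTCTCTTCCTCTTC
Rpl35a: tcttgCCTTCCTCTTTCCgcca
Eef1b2: ggccggtcccggCCCTTTTTCT
Gas5: tttcggagctgtgaggcgaagc
Such a run was found in 17 of 28 small subunit and 23 of 40 large subunit genes with a matched promoter, against 729 of 9977 tested genes (7.31%). Among the risen genes outside both lists 39 of 585 (6.67%) had it, and among the fallen genes 37 of 530 (6.98%). The 40 ribosomal protein genes with the run had a median difference of 1.01 and the 28 without it 1.02. This split was not tested.

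Nuclear genes of the respiratory chain were also higher in GDM offspring, though few passed with the trend on transcript length removed. Among all tested genes 6.28% rose and 5.37% fell. In complex I 22 of 33 members rose, in complex II 1 of 4, in complex III 6 of 9, in complex IV 7 of 13 and in ATP synthase 10 of 19, and 1 member fell in all (Cox6a2). Median differences were 0.59, 0.18, 0.68, 0.64 and 0.43, but with the length trend removed 0.15, -0.10, 0.14, 0.01 and 0.07. Their transcripts are short, with a median of 646 bases in complex I against 2118 for all tested genes. The counts changed as well: with the trend removed, complex I had 2 risen and 0 fallen, complex II 1 risen and 0 fallen, complex III 2 risen and 1 fallen, complex IV 1 risen and 4 fallen and ATP synthase 2 risen and 0 fallen. The calls in complex IV thus went from mostly higher to mostly lower. Without the K libraries the medians were 0.53, 0.20, 0.58, 0.56 and 0.42.

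Uqcrq, a subunit of complex III (chromosome 10, 38561411 to 38564698), had scaled values of 465, 479, 868, 582, 815 and 692 in the Lean and 1011, 994, 950.0, 1174, 1136 and 1715 in the GDM libraries (log2 0.85 ± 0.16, adjusted p = 0.0102). No library of the 2 dams overlapped, and the call held with the length trend removed (0.72). Uqcrfs1, the Rieske iron-sulfur protein, stood at 593 (438 to 702) in Lean and 893 (795 to 1183) in GDM libraries (log2 0.68 ± 0.13, adjusted p = 0.00936), and Sdhd, an anchor of complex II, rose by log2 0.63. Atp5j2, a membrane subunit of ATP synthase, stood at 715 (396 to 960.1) in Lean and 1443 (1103 to 2073) in GDM libraries (log2 1.20 ± 0.18, adjusted p = 0.00719). Ndufa12 (log2 0.97), Ndufa1 (log2 1.29), Ndufc2 (log2 0.83), Uqcrb (log2 0.74), Uqcr10 (log2 1.00), Cox7c (log2 1.03), Cox6c (log2 0.87) and Usmg5 (log2 1.27) rose too. Cox6a2, an isoform best known from heart and skeletal muscle, stood at 24.6 (17.5 to 43.6) in Lean and 9.55 (2.82 to 23.5) in GDM libraries (log2 -1.49 ± 0.40, adjusted p = 0.0307).

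Mitochondrial import and the mitochondrial ribosome followed. Of 31 import genes 14 rose and 0 fell (median 0.49; 0.21 with the length trend removed), led by Tomm7 of the outer membrane pore (log2 1.31 ± 0.22, adjusted p = 0.00725) and the intermembrane chaperones Timm8a1 (log2 1.04), Timm8b (log2 0.92) and Timm10b (log2 1.00). Of 71 mitochondrial ribosomal proteins 25 rose, among them Mrps18c (log2 1.15 ± 0.23, adjusted p = 0.0103), Mrpl41 (log2 0.80), Mrps21 (log2 0.79) and Mrps23 (log2 0.77), and 2 fell (median 0.39; 0.08). With the length trend removed, 4 import genes rose and 0 fell, and 5 mitochondrial ribosomal proteins rose and 2 fell. The share of all tested genes risen was then 1.97%. Enzymes of the citric acid cycle and of pyruvate use did not move as a group, with 2 of 37 risen, 1 fallen and a median of -0.15. Pdk2, a kinase that switches pyruvate dehydrogenase off, was the one that fell, at 84.1 (57.1 to 100.4) in Lean and 40.9 (25.5 to 47.6) in GDM libraries (log2 -1.04 ± 0.20, adjusted p = 0.00947), and Mpc2, a subunit of the mitochondrial pyruvate carrier, rose (log2 0.82 ± 0.18, adjusted p = 0.0159). The other member that rose, Pdk1, is another such kinase (log2 0.47 ± 0.13, adjusted p = 0.0316). Over these 3 paragraphs, calls were lost without 1 library (GDM-HFS 3, GDM-LF 1 and 2, Lean-HFS 2 and Lean-LF 1 and 2, in turn) for Mpc2 and Cox6a2 (adjusted p up to 0.0889). With the length trend removed they were lost for Ndufa12, Ndufc2, Uqcrb, Uqcr10, Cox7c, Cox6c, Usmg5, Mrpl41, Mrps21, Timm8b, Timm10b and Mpc2 (adjusted p 0.0566 to 0.488).

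Proteasome and splicing genes and RNA polymerase II subunits were higher in part, beside 6.28% of all tested genes risen and 5.37% fallen. Of 34 proteasome subunits 12 rose and 0 fell (median 0.30; 0.13 with the length trend removed), and the risen ones with the lowest p, Psma5 (log2 0.89), Psmb1 (log2 0.98), Psmb6 (log2 0.87) and Psmb4 (log2 0.88), belong to the core particle. In the immunoproteasome list 5 of 9 rose. Psme2, a subunit of the PA28 activator, had scaled values of 126, 168, 222, 199, 211 and 199 in the Lean and 355, 626, 280.2, 339, 362 and 478 in the GDM libraries (log2 1.09 ± 0.19, adjusted p = 0.00807), with no overlap and the highest value in GDM-LF 2. Psmb10, an inducible catalytic subunit, rose by log2 0.99. RNA polymerase II gave 7 of 9 risen (median 0.80; 0.34), among them Polr2f (log2 0.85), Polr2d (log2 0.95) and Polr2k (log2 1.07). Of 23 Sm and LSm splicing proteins 13 rose, with Snrpg, Snrpd2 (log2 0.93) and Lsm6 (log2 1.02) among them. Lsm12 fell (log2 -0.51 ± 0.13, adjusted p = 0.0216). The median of this list was 0.58, and 0.15 with the length trend removed. With the trend removed, splicing proteins had 2 risen and 1 fallen. RNA polymerase II then had 1 risen and 0 fallen, and proteasome subunits 5 risen and 0 fallen.

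Histone genes gave 9 of 32 risen and 0 fallen (median 0.57; 0.13 with the length trend removed; 0.22 without the K libraries), such as Hist2h4 (log2 1.54, near-identical to other H4 genes) and the variant H2afv (log2 1.01 ± 0.20, adjusted p = 0.0112). Of 58 enzymes that modify DNA or histones 2 rose and 5 fell, beside 6.28% and 5.37% of all tested genes, and with the length trend removed the list had 2 risen and 0 fallen. The 2 that rose were Prmt1, an arginine methyltransferase (log2 0.61 ± 0.12, adjusted p = 0.0109), and Eed, a core part of the Polycomb complex that methylates histone H3 (log2 0.58). Ezh1, a catalytic subunit of that same complex (log2 -0.55), and the acetyltransferase Kat7 (log2 -0.46) were among those that fell. In this and the previous paragraph, calls were lost without 1 library (GDM-HFS 2 and 3, Lean-HFS 1 and Lean-LF 1 and 2, in turn) for Lsm12, Ezh1, Eed and Kat7 (adjusted p up to 0.0734), and with the length trend removed for Polr2f, Polr2k, Snrpd2, Ezh1 and Kat7 (adjusted p 0.0716 to 0.402).

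**Figure D4:**
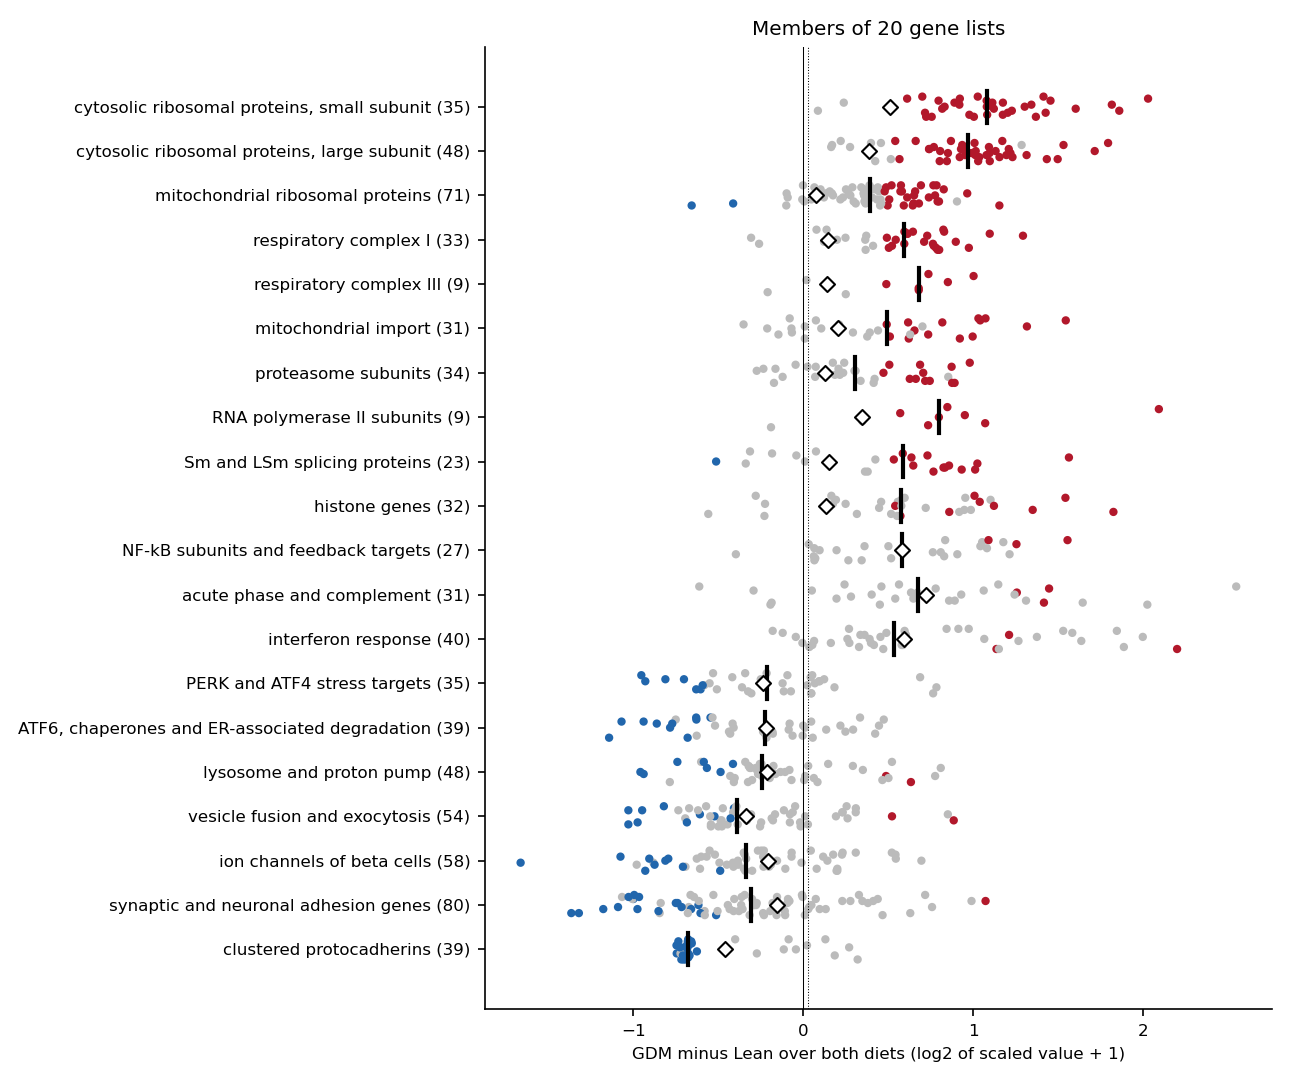
Each point is a tested member of 1 of 20 gene lists (number of members in brackets), placed by its GDM minus Lean difference over both diets (log2 of scaled value + 1), red where higher, blue where lower and grey where not past the threshold. Black bars are list medians, open diamonds the medians with the length trend removed and the dotted line the median of all genes: the ribosomal protein diamonds lie at 0.51 and 0.39, and that of the clustered protocadherins at -0.46.

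Neuronal adhesion genes were lower in GDM offspring. Clustered protocadherins are cadherin-like surface proteins encoded side by side, each with its own first exon and, within the alpha and gamma clusters, common last exons. Of 39 entries 28 fell and 0 rose, against 5.37% of tested genes fallen, with a median of -0.68 (-0.46 with the length trend removed, -0.56 without the K libraries). Because of the common exons the entries of a cluster share reads, so they are not 28 separate measurements. Pcdhgc3 had scaled values of 854, 818, 564, 812, 683 and 633 in the Lean and 498, 346, 443, 475, 474 and 434 in the GDM libraries (log2 -0.70 ± 0.13, adjusted p = 0.00936), with no overlap, and Pcdhga10 (log2 -0.69) and Pcdhga9 (log2 -0.68) nearly repeated it.

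Of 80 synaptic and adhesion genes 17 fell, 1 rose and 62 did not pass (median -0.31; -0.15 with the length trend removed). Among all tested genes 5.37% fell and 6.28% rose. Cntn1, an axonal adhesion molecule, stood at 296 (178 to 327) in Lean and 134 (100.2 to 180.5) in GDM libraries (log2 -0.999 ± 0.18, adjusted p = 0.00896). Robo1, a receptor for Slit proteins, had scaled values of 854, 819, 533, 530.4, 657 and 551 in the Lean and 328, 180.1, 423, 366, 419 and 321 in the GDM libraries (log2 -0.98 ± 0.20, adjusted p = 0.0128), with no overlap and the lowest value in GDM-LF 2. The exception was Anks1b, a postsynaptic scaffold, which stood at 69.5 (50.4 to 116) in Lean and 147 (128 to 195) in GDM libraries (log2 1.07 ± 0.19, adjusted p = 0.00843). Its difference was 0.58 on LF and 1.57 on HFS, and the test of that difference between diets gave an adjusted p of 0.784. The calls of genes named in this and the previous paragraph, and that of Grin1, held in all 12 fits with 1 library left out. They also held with the length trend removed. In the whole lists, 5 synaptic and adhesion genes and 13 protocadherin entries passed in all 12 fits, beside 378 of all 12340 tested genes. With the length trend removed, 7 synaptic and adhesion genes fell and 1 rose, and 13 protocadherin entries fell and 0 rose. Of all tested genes, 2.59% then fell and 1.97% rose.

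Some channel, receptor and vesicle fusion genes of stimulus-secretion coupling fell. The counts of channels and receptors stand beside 5.37% fallen and 6.28% risen among all tested genes. Of 58 ion channel genes 9 fell and 0 rose (median -0.34; -0.21 with the length trend removed). They included Kcnh2, a delayed rectifier of the ERG family, at 497 (409.6 to 669) in Lean and 309 (212 to 362) in GDM libraries (log2 -0.79 ± 0.17, adjusted p = 0.0127). Hcn2, a pacemaker channel (log2 -1.08), and the calcium channel Trpv6, which was near the lower limit at 4.69 (3.60 to 6.39) in Lean and 0.845 (0 to 2.37) in GDM libraries (log2 -1.66 ± 0.34, adjusted p = 0.0115), fell as well. Of 47 receptors 10 fell and 0 rose (median -0.15; -0.15), led by Gprc5b, an orphan receptor (log2 -0.85 ± 0.18, adjusted p = 0.0119), Vdr, the vitamin D receptor (log2 -1.38 ± 0.30, adjusted p = 0.0149), Gabbr2 of the GABA-B receptor (log2 -0.95) and Cckar, a cholecystokinin receptor (log2 -0.93).

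In vesicle fusion and exocytosis 10 of 54 fell and 2 rose, beside 5.37% and 6.28% of all tested genes (median -0.39; -0.33 with the length trend removed; -0.11 without the K libraries). The vesicle SNARE Vamp2 stood at 423 (252 to 559) in Lean and 208 (109.9 to 314) in GDM libraries (log2 -1.03 ± 0.24, adjusted p = 0.0179). Rab3a, a vesicle GTPase (log2 -0.68), fell too, while Vamp8 (log2 0.88 ± 0.18, adjusted p = 0.0119) and Snapin (log2 0.52) rose. Of 28 granin and prohormone processing genes 2 fell, a share near the 5.37% of all tested genes, namely the granule proteins Ptprn2 (log2 -0.70 ± 0.17, adjusted p = 0.0198) and Scg3 (log2 -0.84). Of 32 islet transcription factors 3 fell (9.38%) and 0 rose, beside 5.37% of all tested genes fallen. Ppargc1a, a coactivator of mitochondrial genes (log2 -0.87 ± 0.23, adjusted p = 0.0286), and Neurod1 (log2 -0.62 ± 0.17, adjusted p = 0.0361) fell. So did Nkx6-1, which beta cells need to keep their identity (log2 -0.87 ± 0.26, adjusted p = 0.0452). Pdx1 did not pass (log2 -0.26 ± 0.18, adjusted p = 0.354). In this and the previous paragraph, calls were lost without 1 library (GDM-HFS 1 to 3, GDM-LF 1 and 2, Lean-HFS 1 and 2 and Lean-LF 1 and 2, in turn) for Gabbr2, Cckar, Snapin, Vamp2, Rab3a, Ptprn2, Scg3, Ppargc1a, Neurod1 and Nkx6-1 (adjusted p up to 0.119), and with the length trend removed for Vamp8, Snapin, Ptprn2, Ppargc1a and Nkx6-1 (adjusted p 0.0541 to 0.678).

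Genes of the endoplasmic reticulum stress response were lower in part. Among 35 targets of the kinase PERK and its transcription factor ATF4, 7 fell and 0 rose (median -0.22). Of all tested genes 5.37% fell and 6.28% rose. The median of these targets was -0.24 with the length trend removed, -0.41 on LF, -0.05 on HFS and -0.13 without the K libraries. Chac1, an enzyme that degrades glutathione (chromosome 3, 117711150 to 117714352), had scaled values of 437, 455, 245, 341, 355 and 324 in the Lean and 154, 174, 230.5, 167, 217 and 175 in the GDM libraries (log2 -0.93 ± 0.16, adjusted p = 0.00774). All GDM libraries were below all Lean ones. Sesn2, an inhibitor of mTORC1 (log2 -0.95 ± 0.20, adjusted p = 0.0121), the factor Atf5 (log2 -0.81) and Asns, asparagine synthetase (log2 -0.60), fell by similar amounts.

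The amino acid response element that ATF4 and its partners bind was searched as TGATGNAA on both strands of the 250 bases before the RefSeq start. It was present in 3.27% of 27457 promoters and in 8 of 31 promoters of this list, and in 2 of its 6 called genes with a promoter, Chac1 and Herpud1. The Chac1 window (GRCr8, chr3:126795881-126796130, plus strand) carries the match on the minus strand, shown in capitals, with its first base 167 bases before the start.
Chac1: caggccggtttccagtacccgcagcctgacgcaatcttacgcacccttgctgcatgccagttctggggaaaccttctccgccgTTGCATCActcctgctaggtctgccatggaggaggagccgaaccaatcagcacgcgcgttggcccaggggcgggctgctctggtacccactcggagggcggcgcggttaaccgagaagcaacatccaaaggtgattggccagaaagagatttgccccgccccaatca

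Among 39 genes of ATF6 signalling, chaperones and degradation, 10 fell and 0 rose, beside 5.37% and 6.28% of all tested genes (median -0.22). The median was -0.22 with the length trend removed, -0.21 on LF, -0.19 on HFS and -0.08 without the K libraries. Wfs1, the wolframin of the reticulum membrane, whose loss causes a diabetes syndrome (chromosome 14, 78613741 to 78630689), stood at 278 (201 to 409) in Lean and 136 (102 to 201) in GDM libraries (log2 -1.07 ± 0.21, adjusted p = 0.0112). Creb3l2 (log2 -0.77) and Atf6b (log2 -0.86) are membrane-bound transcription factors, and Sel1l (log2 -0.63) is the scaffold of a degradation complex. In calcium handling 4 of 31 fell (beside 5.37% of all tested genes), among them Stim1, the calcium sensor of the reticulum (log2 -0.72 ± 0.17, adjusted p = 0.0174). Secretory coat and translocon genes split, with 7 risen and 8 fallen of 55, beside 6.28% and 5.37% of all tested genes. Sec61g of the translocon (log2 0.89 ± 0.21, adjusted p = 0.0194) and Ssr4 (log2 0.61) rose, and the coat proteins Sec24d (log2 -0.69) and Sec31a (log2 -0.73) fell. With the length trend removed this list had 0 risen and 3 fallen (median -0.13), so no rise was left.

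Lysosomal genes gave 7 fallen and 2 risen of 48, beside 5.37% and 6.28% of all tested genes (median -0.24). The median was -0.21 with the length trend removed, -0.28 on LF, -0.10 on HFS and -0.11 without the K libraries. Tpp1, a lysosomal peptidase, had scaled values of 573, 541, 324, 533, 414 and 446 in the Lean and 244, 186, 239.8, 297, 234 and 240.3 in the GDM libraries (log2 -0.96 ± 0.15, adjusted p = 0.00719), with no overlap. Gaa, which degrades glycogen (log2 -0.94), and Atp6v0a1, a subunit of the proton pump (log2 -0.74), fell too. Over the paragraphs on the reticulum and the lysosome, calls were lost without 1 library (GDM-HFS 2 and 3, GDM-LF 2, Lean-HFS 1 and Lean-LF 1 and 2, in turn) for Atf5, Asns, Gaa, Atp6v0a1, Sec61g, Ssr4, Sec24d, Sec31a and Stim1 (adjusted p up to 0.0804), and with the length trend removed for Sel1l, Atp6v0a1, Sec61g, Ssr4, Sec24d and Sec31a (adjusted p 0.0549 to 0.507).

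In insulin, IGF and mTOR signalling 6 of 43 genes fell and 2 rose, beside 5.37% and 6.28% of all tested genes (median -0.18; -0.12 with the length trend removed). Eif4ebp2, a repressor of cap-dependent translation that mTOR inactivates, stood at 98.97 (70.3 to 143) in Lean and 56.8 (37.99 to 65.4) in GDM libraries (log2 -0.91 ± 0.17, adjusted p = 0.00915). Foxo1, a transcription factor restrained by insulin (log2 -0.93 ± 0.21, adjusted p = 0.016), Irs2, an adaptor of the insulin receptor that beta cells depend on (log2 -0.85 ± 0.22, adjusted p = 0.0264), and Igf2, an imprinted growth factor (log2 -0.65), fell. Igfbp6 was near the lower limit, at 0.894 (0 to 1.07) in Lean and 3.36 (0.585 to 12.4) in GDM libraries (log2 1.62 ± 0.47, adjusted p = 0.0413). The other gene that rose, Pdk1, is the pyruvate dehydrogenase kinase given above and not the kinase of insulin signalling that goes by the same short name. Of 28 imprinted genes 4 fell and 0 rose, beside 5.37% and 6.28% of all tested genes (median 0.01; 1 risen and 0 fallen with the length trend removed). Among those that fell, Plagl1, an imprinted zinc finger gene, stood at 180.3 (124 to 277) in Lean and 84.8 (11.3 to 133) in GDM libraries (log2 -1.52 ± 0.45, adjusted p = 0.0438).

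Lipid synthesis gave 5 of 38 fallen and 0 risen (median -0.23; -0.17 with the length trend removed), among them Srebf1, the factor that drives the pathway (log2 -0.82 ± 0.21, adjusted p = 0.0242), and the desaturase Fads2 (log2 -0.75). The share of all tested genes fallen was 5.37%. With the length trend removed, 1 of the 38 fell and 0 rose. Of 25 glycolytic genes 2 rose (8%, beside 6.28% of all tested genes). Ldha, lactate dehydrogenase A, which mature beta cells keep low, stood at 634 (567 to 1145) in Lean and 1759 (1068 to 2549) in GDM libraries (log2 1.27 ± 0.24, adjusted p = 0.00935). The other was Hk2 (log2 0.82 ± 0.24, adjusted p = 0.0443). Of 42 antioxidant genes 6 rose and 1 fell, beside 6.28% and 5.37% of all tested genes (median 0.24). With the length trend removed, 1 rose and 0 fell (median 0.02). Txn1 (log2 0.98 ± 0.16, adjusted p = 0.00725), Prdx1 (log2 0.74) and Sod2 (log2 1.09) were among the 6, and Cat, the catalase gene, fell (log2 -0.98 ± 0.26, adjusted p = 0.0289). In this and the previous paragraph, calls were lost without 1 library (GDM-HFS 2 and 3, GDM-LF 1 and 2, Lean-HFS 1 to 3 and Lean-LF 1 to 3, in turn) for Foxo1, Igf2, Irs2, Srebf1, Fads2, Plagl1, Hk2, Cat and Igfbp6 (adjusted p up to 0.117), and with the length trend removed for Igf2, Irs2, Srebf1, Plagl1, Txn1, Prdx1, Cat and Igfbp6 (adjusted p 0.0514 to 0.261).

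Lists of chemokines, NF-kB targets, acute phase and interferon genes had positive medians, with few members past the threshold. Chemokine ligands gave 4 of 30 risen and 0 fallen, beside 6.28% and 5.37% of all tested genes (median 0.84; 1.66 on LF, 0.13 on HFS, 0.41 with the length trend removed, 0.32 without the K libraries). With the length trend removed, 0 chemokine ligands rose. Ccl2, which attracts monocytes, had scaled values of 54.00, 99.98, 157, 77.4, 259 and 225 in the Lean and 1104, 6346, 406, 151, 346 and 892 in the GDM libraries (log2 2.50 ± 0.69, adjusted p = 0.0333). GDM-LF 2 was the highest and GDM-HFS 1 lay inside the Lean range. Ccl7 (log2 1.79), Ccl20 (log2 1.08) and Cxcl2 (log2 2.20) rose. In the cytokine list 3 of 37 rose, near the 6.28% of all tested genes (median 0.16; 0.53 on LF, -0.09 on HFS, 0.03 without GDM-LF 2), among them Csf3 (log2 2.19 ± 0.56, adjusted p = 0.025) and the decoy receptor Il1r2 (log2 0.82). Feedback targets of NF-kB gave 3 of 27 risen, beside 6.28% of all tested genes (median 0.58; 1.08 on LF, 0.20 on HFS, 0.23 without the K libraries). The 3 were Sod2, the mitochondrial superoxide dismutase, at 3179 (1929 to 4084) in Lean and 5952 (3699.6 to 10153) in GDM libraries (log2 1.09 ± 0.24, adjusted p = 0.0143), Gadd45b (log2 1.55) and Birc3 (log2 1.25). Of 31 immediate early genes 3 rose (9.68%, beside 6.28% of all tested genes), including Rgs2 (log2 1.16) and Junb (log2 0.88). The median of this list was 0.52, with 1.11 on LF, -0.00280 on HFS, 0.04 without the K libraries and 0.20 without GDM-LF 2.

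In the acute phase and complement list 4 of 31 rose, beside 6.28% of all tested genes (median 0.67; 1.23 on LF, 0.29 on HFS; 0.72 with the length trend removed; 0.53 without the K libraries). Fga, the alpha chain of fibrinogen (chromosome 2, 201420956 to 201427005), had scaled values of 71.9, 46.3, 74.1, 111, 94.7 and 149 in the Lean and 227, 269, 175, 366, 154 and 276 in the GDM libraries (log2 1.45 ± 0.23, adjusted p = 0.00719), with no overlap. Fgb, its beta chain, was more abundant, at 9088 (7003 to 13814) in Lean and 13964 (13164 to 23774) in GDM libraries (log2 0.71 ± 0.21, adjusted p = 0.0414), and A2m was low (log2 1.42 ± 0.36, adjusted p = 0.0246). Interferon response genes gave 3 of 40 risen, a share near the 6.28% of all tested genes (median 0.53; 1.03 on LF, 0.14 on HFS, 0.59 with the length trend removed). Ifi27 had scaled values of 404, 716, 826, 451, 612 and 379 in the Lean and 1494, 1674, 1506, 756, 1131 and 1201 in the GDM libraries (log2 1.21 ± 0.18, adjusted p = 0.00719), and only GDM-HFS 1 reached into the Lean range. Isg15, a ubiquitin-like modifier, stood at 10.4 (5.40 to 20.1) in Lean and 40.2 (23.7 to 566) in GDM libraries (log2 2.20 ± 0.60, adjusted p = 0.0316), and Usp18, which removes it, rose by log2 1.14.

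The promoters of Ifi27 and Ccl7 show motifs of these responses in the 250 bases before the RefSeq start (GRCr8), with matches in capitals. The interferon-stimulated response element, searched as GAAANNGAAA on both strands, was present in 3.29% of 27457 promoters and in 19 of 30 promoters of the interferon list. Ifi27 (chr6:128355062-128355311, plus strand) has 2 matches on the plus strand, 169 and 84 bases before the start.
Ifi27: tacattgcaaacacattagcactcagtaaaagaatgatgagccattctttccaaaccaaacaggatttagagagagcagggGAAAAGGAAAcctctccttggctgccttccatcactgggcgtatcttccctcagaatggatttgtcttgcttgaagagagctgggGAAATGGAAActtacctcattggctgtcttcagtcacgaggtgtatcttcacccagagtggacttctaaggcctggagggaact
The kB motif bound by NF-kB was present in 6.41% of promoters and in 8 of 23 promoters of chemokine ligands, Ccl20, Cxcl2 and Ccl7 among them. Ccl7 (chr10:67513845-67514094, plus strand) has 1 match on the minus strand, 59 bases before the start.
Ccl7: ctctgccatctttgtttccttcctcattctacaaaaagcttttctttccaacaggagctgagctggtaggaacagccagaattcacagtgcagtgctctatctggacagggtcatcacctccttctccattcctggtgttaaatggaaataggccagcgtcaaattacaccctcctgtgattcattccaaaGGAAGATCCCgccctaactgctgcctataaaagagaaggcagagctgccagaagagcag
A match describes the letters of a window and does not show binding. Of 19 interferon genes with a match, Ifi27 was the only one called. It was also the only called interferon gene with a matched promoter, so Isg15 and Usp18 were not searched.

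Most immune calls depended on single libraries: they were lost with 1 library left out, each of the 12 for at least 1 gene, for Isg15, Usp18, Ccl2, Ccl7, Ccl20, Cxcl2, Csf3, Il1r2, Gadd45b, Birc3, A2m, Fgb and Junb (adjusted p up to 0.127). With the length trend removed they were lost for Isg15, Usp18, Ccl2, Ccl7, Ccl20, Cxcl2, Csf3, Il1r2, Fgb and Rgs2 (adjusted p 0.0519 to 0.217). GDM-LF 2, the highest library for the mean level of chemokine, interferon and NF-kB genes, was also the highest for acinar markers, whose mean level was 8.36 to 11.3 (log2) in Lean and 8.96 to 12.8 in GDM libraries. The summed scaled values of these markers ranged from 33133 to 275241 in Lean and from 45729 to 812111 in GDM libraries. Of the 31 markers, 0 were at 0 in any library, and 1 passed the threshold. Of 19 macrophage markers 0 were called in either direction, with a median of -0.40 (0.56 without the K libraries) and summed scaled values of 273 to 725 in Lean and 59.6 to 786 in GDM libraries. Without GDM-LF 2 the medians were 0.50 for chemokine ligands and 0.33 for interferon genes, and with the acinar level as a covariate they were 0.41 and 0.27.

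**Figure D5:**
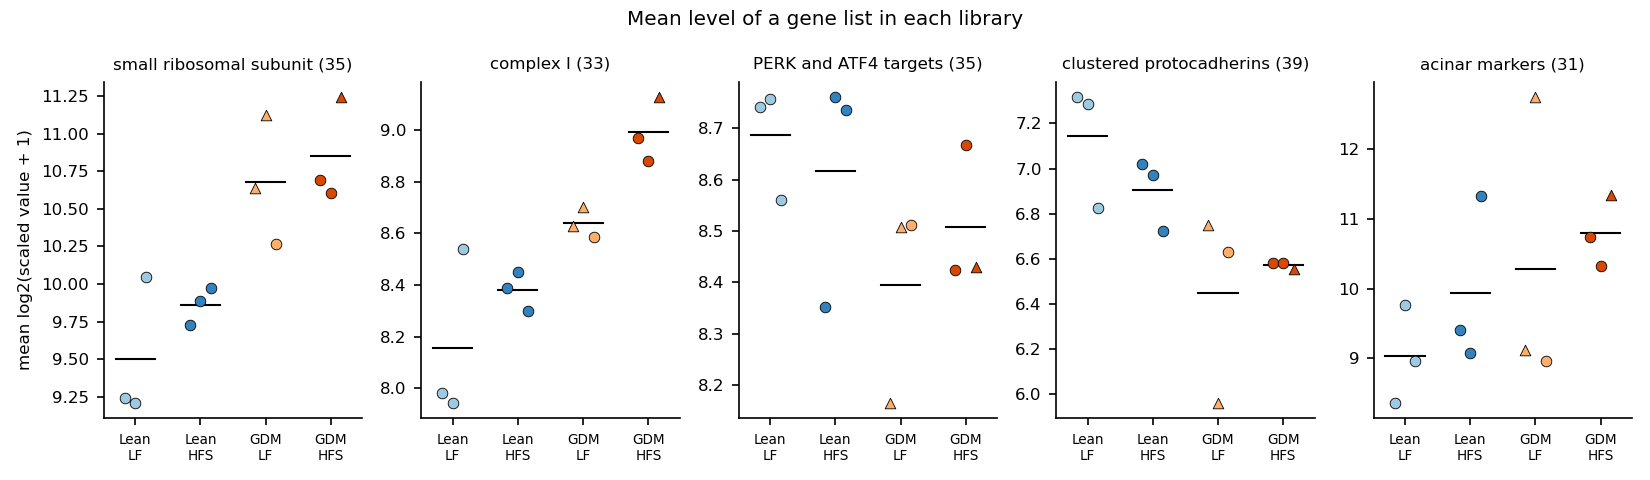
Mean level of 5 gene lists in each library (mean log2 of scaled value + 1; number of members in brackets; each panel has its own y axis, which does not start at 0), with bars for group means and triangles for K libraries. GDM libraries lie above all Lean libraries for the small ribosomal subunit and complex I, while the 2 dams overlap for PERK and ATF4 targets, clustered protocadherins and acinar markers, of which GDM-LF 2 has the most.

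The main hormones of beta, alpha and delta cells did not pass the threshold in the limma fit. Ins2 stood at 482479 (392895 to 588513) in Lean and 506433 (377386 to 715038) in GDM libraries (log2 0.06 ± 1.11, adjusted p = 0.976), and Ins1 did not pass either (log2 0.29 ± 1.71, adjusted p = 0.927). Their SE comes mostly from the mean-variance trend shared over genes and not from their own spread. Without the trend, their adjusted p was 0.783 and 0.17 (limma). Iapp, the amyloid peptide released with insulin (log2 0.49 ± 0.24, adjusted p = 0.182), Gcg, the glucagon gene of alpha cells (log2 0.65 ± 0.48, adjusted p = 0.377), Sst, the somatostatin gene of delta cells (log2 0.57 ± 0.24, adjusted p = 0.12), and Chga, a granin (log2 -0.43 ± 0.22, adjusted p = 0.197), did not pass. Iapp passed by DESeq2 (adjusted p = 0.00513) and Sst without Lean-HFS 2 (adjusted p = 0.0202, limma). The libraries of the 2 dams overlapped for all of these genes. For the list counts that follow, the share of all tested genes risen was 6.28%. Of 7 delta and PP cell markers 3 rose: Ppy, pancreatic polypeptide, at 3692 (2020.0 to 17598) in Lean and 16081 (5480.5 to 26511) in GDM libraries (log2 1.61 ± 0.41, adjusted p = 0.0249), Rbp4 (log2 0.99 ± 0.23, adjusted p = 0.0189) and Pyy (log2 0.78). Of 16 dedifferentiation and progenitor genes 5 rose (median 0.65; 0.31 without the K libraries), among them Cck (log2 1.19 ± 0.26, adjusted p = 0.0144) and Sox11, low at 1.52 (0.799 to 3.66) in Lean and 5.47 (4.10 to 16.2) in GDM libraries (log2 1.53 ± 0.40, adjusted p = 0.0289).

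Markers of some other cells had positive medians with few members called, beside 6.28% of all tested genes risen and 5.37% fallen. The median was 0.99 for 31 acinar genes (29 above 0; 0.22 without the K libraries), 0.78 for 14 duct genes (12 above 0; 0.15), 1.5 for 8 erythrocyte genes (8 above 0; 0.51) and 0.74 for 5 adipocyte genes (5 above 0; 0.48). The trypsinogen Try4, which shares reads with other trypsins (log2 3.15 ± 0.74, adjusted p = 0.0191), was the 1 of 31 acinar genes that rose, and Car2 the 1 of 14 duct genes (log2 0.93). Eng (log2 -0.75) and Kdr, a receptor for vascular endothelial growth factor (log2 -0.87 ± 0.26, adjusted p = 0.0441), were the 2 of 16 endothelial genes that fell, with an endothelial median of -0.44. Cidec of adipocytes (log2 0.76) and Hba-a1, a globin with near-identical copies and low values (log2 1.70 ± 0.50, adjusted p = 0.0424), rose. In this and the previous paragraph, calls were lost with 1 library left out, each of the 12 for at least 1 gene, for Ppy, Pyy, Try4, Car2, Eng, Kdr, Hba-a1, Cidec and Sox11 (adjusted p up to 0.111), and with the length trend removed for Ppy, Rbp4, Pyy, Car2, Eng, Kdr, Hba-a1, Cidec and Cck (adjusted p 0.0549 to 0.744). The part of other cell types in these differences was not tested apart from the fit with the acinar level as a covariate, in which 381 genes passed (266 higher, 115 lower).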

How the data were processed

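Islet RNA of 12 rat offspring, depleted of rRNA, was sequenced as strand-specific libraries, per the labels' protocols. The submitters' processing notes name STAR 2.5.1b, HOMER 4.9 and DESeq2 (no version given). HOMER assigned exon reads of both strands to genes of build rn5, per the file headers, so overlapping and antisense genes cannot be told apart. The authors deposited a depth-scaled signal per gene. Although FPKM stands in the header, length does not enter the values: division by a step per library gave whole reads for 100% of values of up to 1000 reads (tolerance 0.1 read).

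Libraries were rescaled by the median ratio over the 11337 of 17407 genes above 0 in all of them (factors 0.82 to 1.27). The 12340 genes whose scaled values averaged 1 or more were tested with limma 3.58.1 (R 4.3.3) on log2(scaled value + 1), dam and weaning diet as additive terms, an empirical Bayes trend and Benjamini-Hochberg adjustment at 0.05. Within-diet values and the interaction came from 1 mean per group. The scripts were tested on simulated data. Replicates of a group differed beyond sampling noise (chi-square of 56.5 per gene or more). Alternatives included edgeR 4.0.16 and DESeq2 1.42.0 on the recovered reads with rRNA entries left out (1413 and 2181 calls), other scalings, pseudocounts and filters, covariates, a length trend removed per library (lowess, span 0.3) and libraries left out.

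The members and the 64 gene lists (1 of which matched no entry) were chosen with earlier results of these data known. Named genes are the 15 largest rises and falls among calls without overlap whose scaled values averaged 10 or more, provisional symbols left out, and up to 4 members of lowest p per list and direction, with defining members. Some genes that the rule takes are not reported here. Lists were counted and not tested. The 4 single values used a two-sided exact permutation test within diets. A value of 0 allows up to 3 reads, a scaled value of 0.500 to 1.74 depending on the library, for counting error only. Sequences are from RefSeq (GRCr8). Of the files' genes, 16426 matched a RefSeq accession.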

Additional observations from a re-analysis of the deposited data

How the results depend on the processing

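The 1438 calls over both diets became 832 without the mean-variance trend, 483 without rescaling, 2367 with library quality weights, 2181 by DESeq2, 381 with the acinar covariate, 562 with the length trend removed and 0 both with the Rn45s covariate and without the K libraries. Leaving out 1 library at a time gave 393 to 2110. Pseudocounts, filters, TMM, edgeR and no diet block kept the count within 1.5 times. The cause of these shifts was not tested.

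The 195 calls on LF fell to 0 with pseudocounts of 0.1 and 5, with no filter, without the trend, with edgeR and with the replicate block, and ranged from 0 to 1726 with 1 library left out. The 1 call on HFS became 0 without the trend, 2 with the replicate block and 0 to 152 with 1 library left out. The interaction gave 0 in every fit run. Replicate numbers share only a number: the 18 same-numbered pairs deviated together with r of -0.50 to 0.20, 5 of 12 libraries correlated best with their own number, and the replicate block gave 1216 calls over both diets.

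The rRNA share differed by -18.1 percentage points (p = 0.125, exact permutation) without the K libraries, and by -13.7 (p = 0.065) without Lean-LF 2; its range with 1 library left out was -20.8 to -13.7. The insulin share, not past the threshold in any fit, ranged from -1.03 to 2.08 with 1 library left out. With the length trend removed, the differences of Ins1 (-0.42), Ins2 (-0.64) and Iapp (-0.29) changed sign, as did Pdx1 without the K libraries (0.10). With 1 library left out, the difference of Ins2 ranged from -0.0163 to 0.12, below 0 without GDM-HFS 3, and none of these had passed. Depth was 11469290 reads or more, and scaled values near 1 stand for a few reads, so differences of the lowest genes, such as Trpv6 and Igfbp6, are imprecise.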
